A study of Homo sapiens with 4 samples.

Results

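Human chromosome 19 carries long rows of neighbouring zinc finger genes, and their chromatin was examined here in HCT116 cells with and without added FOXD2. All RefSeq protein-coding genes on this chromosome that start beyond 10 Mb (hg38) and whose symbol is ZNF followed by digits were taken. They numbered 220 of the 19974 protein-coding genes of chromosomes 1 to 22 and X. Of these, 63 lie in 19p13-p12, 156 in 19q13 and 1, ZNF536, in 19q12. The choice used position and symbol only and no measured value. The last ZNF genes outside the 10 Mb limit were ZNF561, ZNF562 and ZNF846, and the first inside it were ZNF653, ZNF627 and ZNF823. All of these had an accessible gene end in every library.

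HCT116 is an established human colorectal carcinoma line. The FOXD2 group (2 libraries) expressed FOXD2, a transcription factor of the forkhead family, from its full-length coding sequence in pSin, and the control group (2 libraries) carried the empty pSin vector. Both groups were made with lentivirus, held under puromycin and kept as stable lines, so vector and selection were common to all 4 libraries. FOXD2 was therefore driven from a lentiviral vector and not from its own locus, and whether a line was a pool or a clone is not stated in the labels. Since separate cultures are not named for the replicates, their spread may be technical.

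Accessibility was measured by ATAC-seq, a method that uses Tn5 transposase to insert adapters into open chromatin, and what is available per library is the authors' list of called intervals. Lists held 82739 and 64675 intervals in FOXD2 libraries 1 and 2, against 77752 and 72796 in control libraries 1 and 2. Read depth is not given, so a gene without an interval had none called at the depth of that library. All 8 markers of colon epithelial carcinoma cells, among them EPCAM and KRT8, had an open gene end in all 4 lists, and none of 6 leukocyte markers did. Of the fibroblast markers 2 of 6, and of the endothelial markers 1 of 5, were open in all 4 lists. The leukocyte marker CD3E was open in both control libraries and neither FOXD2 library, and the endothelial marker CDH5 in both FOXD2 libraries and neither control library. Over all 19974 genes the first pattern held for 0.901% and the second for 0.476%. Whether these 2 markers differ between the groups was not tested.

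Most genes of these rows encode C2H2 zinc finger proteins with a KRAB domain, which bind DNA through their fingers and recruit the corepressor TRIM28 and the histone H3 lysine 9 methyltransferase SETDB1. Many of their known targets are transposable elements. The genes arose by repeated local duplication, so neighbours resemble each other in sequence, and their own bodies are known to carry H3K9 methylation in many cell types.

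The promoters of 6 genes show the range of sequence behind the open and closed genes described further on. They are RefSeq promoters (GRCh38.p14), each from 250 bases before to 50 after the listed start, on the strand of the gene, with every CG dinucleotide in capitals. For each large cluster they are the promoter of the gene with the strongest interval, then, among genes with no interval at any end or listed start, the promoter with the highest and that with the lowest CpG content. ZNF627 (chr19:11597233-11597532, + strand, open), ZNF433 (chr19:12035630-12035929, - strand, closed) and ZNF626 (chr19:20661522-20661821, - strand, closed) are from 19p13-p12. ZNF576 (chr19:43596142-43596441, + strand, open), ZNF528 (chr19:52397599-52397898, + strand, closed) and ZNF404 (chr19:43883915-43884214, - strand, closed) are from 19q13.
ZNF627: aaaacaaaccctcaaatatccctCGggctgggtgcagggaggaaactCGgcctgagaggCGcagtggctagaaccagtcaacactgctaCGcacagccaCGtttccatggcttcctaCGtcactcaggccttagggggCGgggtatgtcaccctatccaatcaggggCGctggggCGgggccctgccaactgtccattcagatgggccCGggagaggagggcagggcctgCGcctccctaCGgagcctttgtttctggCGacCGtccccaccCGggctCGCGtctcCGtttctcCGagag
ZNF433: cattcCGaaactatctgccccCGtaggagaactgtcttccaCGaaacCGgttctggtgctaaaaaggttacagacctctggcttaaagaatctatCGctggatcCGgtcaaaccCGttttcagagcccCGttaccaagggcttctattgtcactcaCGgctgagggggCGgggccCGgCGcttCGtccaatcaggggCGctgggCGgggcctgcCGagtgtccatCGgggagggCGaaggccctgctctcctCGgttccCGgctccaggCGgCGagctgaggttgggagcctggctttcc
ZNF626: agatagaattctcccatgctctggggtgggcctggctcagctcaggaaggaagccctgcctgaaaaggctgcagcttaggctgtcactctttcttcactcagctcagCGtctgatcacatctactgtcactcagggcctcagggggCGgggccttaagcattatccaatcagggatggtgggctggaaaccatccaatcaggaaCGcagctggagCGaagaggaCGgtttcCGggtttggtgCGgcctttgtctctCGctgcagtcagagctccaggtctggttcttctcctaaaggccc
ZNF576: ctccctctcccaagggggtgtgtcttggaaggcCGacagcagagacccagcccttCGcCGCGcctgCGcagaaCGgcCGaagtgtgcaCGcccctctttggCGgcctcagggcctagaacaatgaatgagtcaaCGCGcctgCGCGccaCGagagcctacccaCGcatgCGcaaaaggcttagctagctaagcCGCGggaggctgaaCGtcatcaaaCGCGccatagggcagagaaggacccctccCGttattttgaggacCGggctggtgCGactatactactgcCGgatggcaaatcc
ZNF528: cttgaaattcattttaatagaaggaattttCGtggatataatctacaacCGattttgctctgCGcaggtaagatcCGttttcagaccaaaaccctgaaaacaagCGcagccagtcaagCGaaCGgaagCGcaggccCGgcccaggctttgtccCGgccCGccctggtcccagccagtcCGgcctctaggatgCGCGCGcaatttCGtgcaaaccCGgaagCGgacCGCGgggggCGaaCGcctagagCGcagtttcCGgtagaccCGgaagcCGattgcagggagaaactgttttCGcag
ZNF404: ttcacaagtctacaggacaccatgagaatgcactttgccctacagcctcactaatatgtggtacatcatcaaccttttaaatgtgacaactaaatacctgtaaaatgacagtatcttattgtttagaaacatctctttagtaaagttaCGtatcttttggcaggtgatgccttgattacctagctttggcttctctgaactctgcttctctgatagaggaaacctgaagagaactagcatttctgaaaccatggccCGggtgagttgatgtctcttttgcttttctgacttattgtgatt
The ratio of observed to expected CpG was 0.638 in ZNF627, 0.780 in ZNF433 and 0.33 in ZNF626. It was 0.869 in ZNF576, 1.13 in ZNF528 and 0.176 in ZNF404. The promoter richest in CpG by this ratio among the 6, that of ZNF528, was closed in all 4 libraries. This follows from the choice, since closed promoters were picked by CpG content and open ones by interval strength. Promoters of ZNF547 (1.16) and ZNF175 (1.15), not printed, had higher ratios and were open in all 4 libraries.

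An end was called open where an interval lay within 1000 bp of either end of the gene. Of the 220 chromosome 19 ZNF genes, 125 (56.8%) had an open end in FOXD2 library 1 and 119 (54.1%) in FOXD2 library 2, against 121 (55.0%) in control library 1 and 121 (55.0%) in control library 2. The shares of the groups overlapped, with 1 FOXD2 library above and 1 below both control libraries. The mean was 55.5% ± 1.93 in FOXD2 cells and 55.0% ± 0 in control cells (SD, n = 2 each), a difference of 0.455 percentage points. An exact two-sided permutation test over the 4 libraries gave p = 1 (adjusted p = 1 over 6 comparisons), where the smallest p this design allows is 0.33.

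In all 4 lists together 114 of the 220 genes (51.8%, exact 95% binomial interval 45.0 to 58.6%) were open, 19 (8.64%) were open in 1 to 3 lists, and 87 (39.5%) were open in none. Intervals of this kind cover counting error over genes only, and neighbouring genes are not independent. Among all 19754 other protein-coding genes 65.7% were open in all 4 lists and 22.9% in none. ZNF genes of other chromosomes were open in all 4 lists in 187 of 237 cases (78.9%, 73.2 to 83.9%), and other genes of chromosome 19 beyond 10 Mb in 629 of 907 (69.3%, 66.2 to 72.3%). The chromosome 19 ZNF genes therefore had the lowest open share of these sets and, beside the 18.1% of the ZNF genes elsewhere, more than double the share closed throughout.

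**Figure D1:**
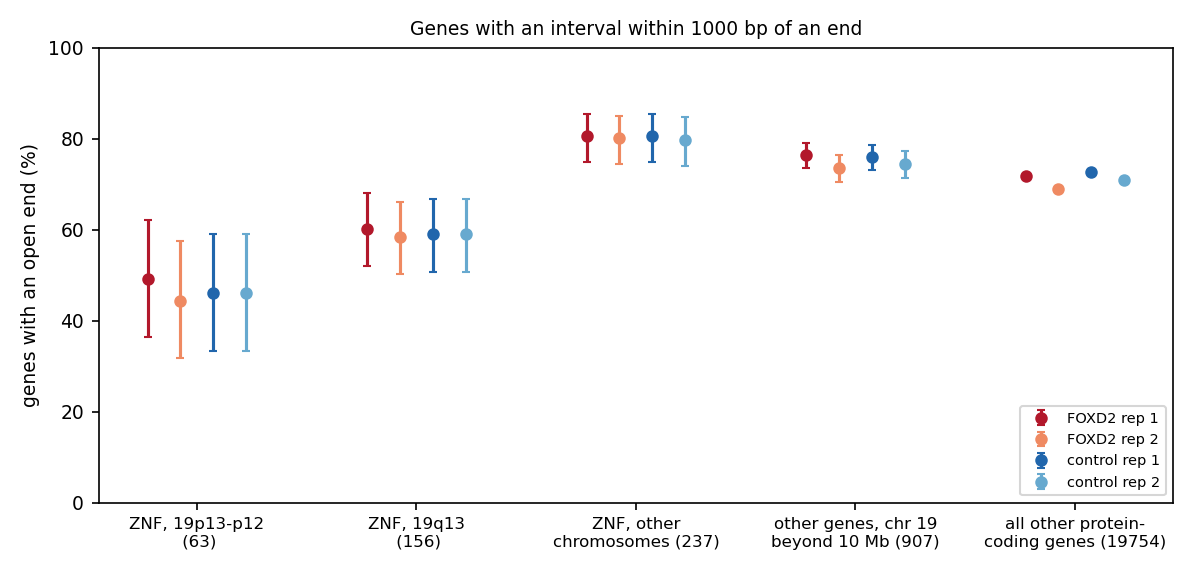
Percent of genes with an interval within 1000 bp of an end (vertical axis) in each of the 4 libraries, for ZNF genes of 19p13-p12 and 19q13 and for 3 comparison sets, with the number of genes in brackets. Points are single libraries and bars are exact 95% binomial intervals; the 2 chromosome 19 sets lie between 44.4 and 60.3%, below all 3 comparison sets.

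No chromosome 19 ZNF gene had an open end in both FOXD2 libraries and in neither control library, and none had it in both control libraries and in neither FOXD2 library. Over all 19974 genes the first pattern held for 95 (0.476%) and the second for 180 (0.901%), so counts of 0 among 220 are near these shares. Leaving out 1 library gave 5 FOXD2-only and 0 control-only genes without FOXD2 library 2, where 1.84% and 1.49% of all genes have these patterns. Without FOXD2 library 1 there were 4 and 4 (all genes 1.08% and 2.71%). Without control library 1 there were 1 and 2 (1.20% and 1.81%), and without control library 2 there were 0 and 2 (0.846% and 2.52%). The 19 genes of mixed state were spread over the libraries. In exactly 1 list there were 13, of which 5 were in FOXD2 library 1 (ZNF439, ZNF709, ZNF540, ZNF71 and ZNF835), 4 in FOXD2 library 2 (ZNF682, ZNF574, ZNF114 and ZNF667), 2 in control library 1 (ZNF575 and ZNF132) and 2 in control library 2 (ZNF541 and ZNF444).

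Another 5 were open in 3 lists, and 4 of these, ZNF491, ZNF493, ZNF155 and ZNF772, lacked an interval only in FOXD2 library 2, which has the shortest list. ZNF493 had an authors' −log10 q of 17.8 in FOXD2 library 1 and none in FOXD2 library 2, against 23.6 and 15.2 in the control libraries. ZNF491 had 18.9 and none in the FOXD2 libraries, against 18.8 and 10.9 in the control libraries. ZNF233 was open in both FOXD2 libraries, at 14.5 and 5.68, and in control library 1, at 6.26, and not in control library 2. ZNF583 was open in FOXD2 library 1 and control library 2. The calls of these genes followed single libraries and not the groups.

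ZNF114 shows how the gene-end window set some of these calls. Its −log10 q of 24.1 in FOXD2 library 2 was the highest among the genes open in 1 list. That interval ran over chr19:48270943-48271471, and a second one followed at chr19:48271680-48272082. The other lists held a single interval there, chr19:48271138-48272093 in FOXD2 library 1, chr19:48271176-48272119 in control library 1 and chr19:48271131-48271959 in control library 2, with −log10 q of 18.0, 25.2 and 25.7. The site was thus called in all 4 libraries, and only the first of the split intervals reached to within 1000 bp of the end of the gene.

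The clusters differed in how many genes were open. In 19q13 an open end was found for 94 and 91 of 156 genes in the FOXD2 libraries (60.3 and 58.3%) and for 92 and 92 in the control libraries (59.0 and 59.0%). In 19p13-p12 the counts were 31 and 28 of 63 genes in the FOXD2 libraries (49.2 and 44.4%) and 29 and 29 in the control libraries (46.0 and 46.0%). The share was higher in 19q13 in each of the 4 libraries, by 11.1 to 13.9 percentage points (mean 12.7). In all 4 lists 87 of the 19q13 genes (55.8%, 47.6 to 63.7%) and 27 of the 19p13-p12 genes (42.9%, 30.5 to 56.0%) were open, a difference of 12.9 points, and these intervals overlap. Counted at the 5′ end only, where a strand is listed, the difference was 7.73 points (55.9% in 19q13 and 48.1% in 19p13-p12), and with listed internal starts counted as well as ends it was 19.02 points. The genes of a cluster share their libraries and their neighbourhood, so no test over genes was made. Within clusters FOXD2 minus control came to 0.794 percentage points in 19p13-p12 and 0.321 in 19q13 (exact permutation p = 1 for each, adjusted p = 1).

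Where neighbouring starts lie less than 1 Mb apart the genes form 14 groups, of which 7 hold 5 or more genes. The group with the lowest share was that from ZNF565 to ZNF573 in 19q13, with 8 of 24 genes open in all 4 lists (33.3%). Next came the 19p12 group from ZNF101 to ZNF254, with 13 of 37 (35.1%). The others were the group from ZNF653 to ZNF791 with 13 of 25 (52.0%), ZNF575 to ZNF296 with 14 of 24 (58.3%), ZNF175 to ZNF331 with 23 of 39 (59.0%), ZNF302 to ZNF792 with 3 of 5 and ZNF628 to ZNF446 with 35 of 57 (61.4%). With listed internal starts counted as well, the ZNF565 to ZNF573 group had 10 of 24 (41.7%) and the ZNF101 to ZNF254 group stayed at 13 of 37, so which of the 2 is lowest depends on the starts counted. From ZNF175 to ZNF331 each of the 39 genes had the same state in all 4 libraries, with 23 open and 16 closed.

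**Figure D2:**
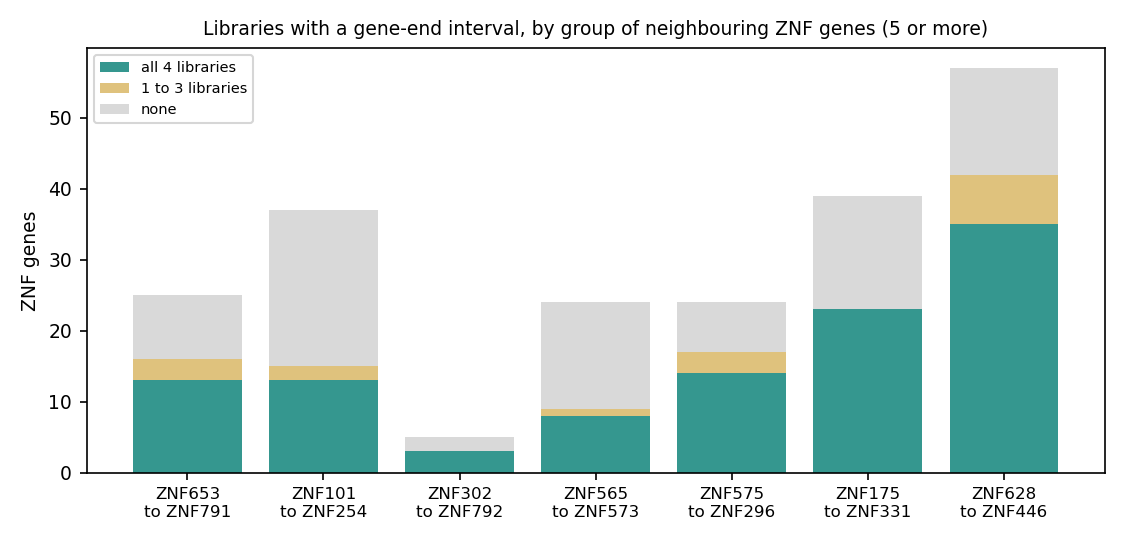
Number of chromosome 19 ZNF genes (vertical axis) with an open end in all 4 libraries, in 1 to 3 and in none, for the 7 groups of neighbouring genes that hold 5 or more, named by their first and last gene. The groups from ZNF101 to ZNF254 and from ZNF565 to ZNF573 have more genes in the closed part, 22 and 15, than in the open part, 13 and 8.

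Genes closed in all 4 libraries often lay side by side. The longest run held 11 genes over 1.34 Mb of 19p12 (chr19:21804946-23147221), namely ZNF43, ZNF208, ZNF257, ZNF676, ZNF729, ZNF98, ZNF492, ZNF99, ZNF723, ZNF728 and ZNF730. A run of 5 in the same group comprised ZNF90, ZNF486, ZNF737, ZNF626 and ZNF66. In 19q13 runs of 5 were ZNF260, ZNF529, ZNF382, ZNF461 and ZNF567, then ZNF790, ZNF345, ZNF829, ZNF568 and ZNF420, then ZNF610, ZNF880, ZNF528, ZNF534 and ZNF578, and last ZNF418, ZNF256, ZNF606, ZNF135 and ZNF329. ZNF568 is the human counterpart of a mouse KRAB zinc finger gene needed in early development.

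Some of these runs lay in stretches with no interval at all. From chr19:20039468 to 20922982, over 884 kb, no list held any interval, and ZNF90, ZNF486, ZNF737, ZNF626 and ZNF66 lie wholly inside. The stretch chr19:21767873-22428229 (660 kb) holds ZNF43, ZNF208, ZNF257, ZNF676, ZNF729 and ZNF98, and chr19:22428737-23249785 (821 kb) holds ZNF492, ZNF99, ZNF723, ZNF728 and ZNF730. The 11 genes of the longest closed run are thus all within these 2 stretches. In 19q13 the stretch chr19:36773225-37172481 (399 kb) holds ZNF790, ZNF345, ZNF829, ZNF568 and ZNF420. How well short reads map in these duplicated stretches was not tested.

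The other closed genes of 19p13-p12, to the total of 31, were ZNF69, ZNF763, ZNF433, ZNF878, ZNF844, ZNF625, ZNF563, ZNF442, ZNF799, ZNF506, ZNF253, ZNF93, ZNF429, ZNF681 and ZNF726. ZNF93 is known to bind and repress LINE-1 elements of the L1PA families. In 19q13, to the total of 55, they were ZNF599, ZNF30, ZNF875, ZNF569, ZNF570, ZNF793, ZNF571, ZNF404, ZNF223, ZNF284, ZNF225, ZNF112, ZNF285, ZNF229, ZNF577, ZNF841, ZNF836, ZNF600, ZNF320, ZNF415, ZNF347, ZNF665, ZNF677, ZNF813, ZNF331, ZNF582, ZNF471, ZNF470, ZNF749, ZNF773, ZNF549, ZNF550, ZNF154, ZNF671 and ZNF814. ZNF331 is an imprinted gene, and ZNF154, ZNF582 and ZNF671 are known from other work as methylation markers of carcinomas. DNA methylation was not measured in these libraries. ZNF536, alone in 19q12, was closed at both ends as well.

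Open genes also lay in runs. The longest, of 8 each, ran from ZNF628 to ZNF787 and from ZNF264 to ZNF17 in 19q13. A run of 6 in 19p12, ZNF85, ZNF430, ZNF714, ZNF431, ZNF708 and ZNF738, begins next to the closed run that ends with ZNF66. Pairs of chromosome 19 ZNF genes whose ends lie within 1000 bp of each other numbered 12. In 8 pairs both genes had closed ends in all 4 lists, such as ZNF829 and ZNF568 with 41 bp between ends. In 2 pairs both were open in all 4 lists (ZNF490 with ZNF791 and ZNF324 with ZNF446), and 2 were unlike (ZNF320 with ZNF888 and ZNF814 with ZNF417). Among the genes of these pairs with closed ends, ZNF567, ZNF550 and ZNF320 had an open internal start in all 4 lists. Such pairs, and genes nested in others (ZNF146 in ZNF565, ZNF580 in ZNF581), share intervals and are not separate observations.

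**Figure D3:**
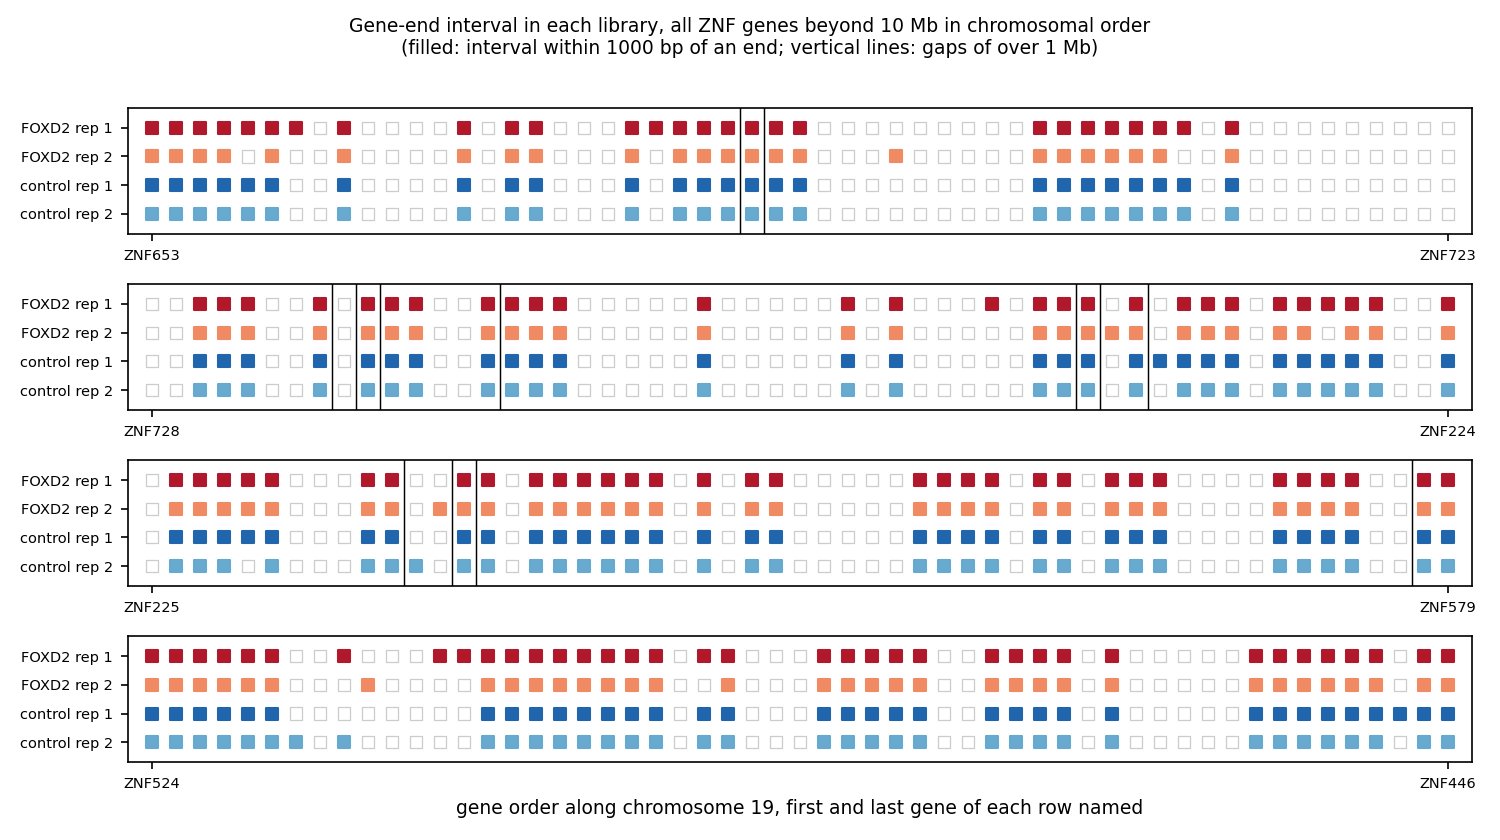
The 220 ZNF genes in chromosomal order in 4 rows of 55, each with 1 line per library; a filled square is an interval within 1000 bp of a gene end and an empty square is none, and vertical lines mark gaps of over 1 Mb between starts. Columns are mostly filled or empty throughout, with 19 mixed columns, and the run of 11 empty columns from ZNF43 to ZNF730 spans the end of the first row and the start of the second.

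Single genes show how strong the open ends were. Strength was ranked by the percentile, within each list, of the authors' −log10 q of the best interval at the gene end. The 5 strongest were ZNF576, ZNF8, ZNF787, ZNF627 and ZNF543, with mean percentiles between 96.7 and 99.0. ZNF576 (chr19:43596392-43601157) had −log10 q of 85.6 and 62.6 in FOXD2 libraries 1 and 2, against 121.3 and 136 in the control libraries. Its authors' fold enrichment over local background was 10.3 and 9.36 in the FOXD2 libraries, against 11.4 and 12.6 in the control libraries. ZNF8 had fold enrichment of 13.1 and 11.4 in the FOXD2 libraries, against 14.05 and 13.6 in the control libraries. ZNF627, whose promoter is printed first, had 13.8 and 11.1 in the FOXD2 libraries, against 15.2 and 13.2 in the control libraries. In ZNF576 and ZNF8 both FOXD2 values were below both control values, whereas the groups of ZNF627 overlapped. Median fold over all other genes open in all 4 lists was also lower in both FOXD2 libraries, at 8.99 and 8.28, against 9.77 and 9.52 in the control libraries. This order is thus not particular to ZNF576 and ZNF8, and the share of all genes that have it was not counted. Such values depend on the depth of each library, which is not given, and were not tested.

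The 5 weakest among the genes open in all 4 lists were ZNF565, ZNF85, ZNF850, ZNF234 and ZNF432, with mean percentiles between 28.4 and 53.5. ZNF432 had fold enrichment of 4.93 and 7.74 in the FOXD2 libraries, against 5.22 and 4.42 in the control libraries, so the groups overlapped. ZNF85 had 5.99 and 7.39 in the FOXD2 libraries, against 8.95 and 6.63 in the control libraries, which overlap as well.

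Some open genes have known roles in the control of repeats and of other zinc finger genes. ZNF91, which represses SVA elements, had fold enrichment of 12.3 and 5.68 in the FOXD2 libraries, against 9.20 and 10.0 in the control libraries. ZNF274, known to recruit SETDB1 to the 3′ ends of other zinc finger genes, had 7.48 and 8.27 in the FOXD2 libraries, against 8.57 and 7.70 in the control libraries. The groups overlapped for ZNF91 and for ZNF274. Both genes were named for their known roles after their values had been seen.

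Taken over the 114 genes, the median fold enrichment of the best interval was 11.2 and 9.83 in the FOXD2 libraries, against 11.8 and 11.3 in the control libraries. Among other genes open in all 4 lists the medians were 8.99 and 8.28 in the FOXD2 libraries, against 9.77 and 9.52 in the control libraries. Median widths of the intervals at ZNF genes were 866 and 806 bp in the FOXD2 libraries, against 864 and 840 bp in the control libraries, and 943 and 888 bp against 982 and 940 bp at other genes. In ZNF genes of other chromosomes the median fold was 10.4 and 9.23 in the FOXD2 libraries, against 11.2 and 11.0 in the control libraries, with widths of 895 and 863 bp against 927 and 892 bp. Other genes of chromosome 19 beyond 10 Mb had fold of 7.64 and 7.09 against 8.30 and 8.17, and widths of 810 and 774 bp against 849 and 818 bp. In each of the 4 lists the median fold of the chromosome 19 ZNF genes was thus above that of each of these sets. Their median width was below that of all other genes and of ZNF genes elsewhere, and above that of other genes of chromosome 19. By rank of −log10 q the chromosome 19 ZNF genes were below all other genes. Their median percentiles were 90.4 and 86.3 in the FOXD2 libraries, against 88.2 and 89.2 in the control libraries. Among all other genes the percentiles were 91.0 and 88.2 in the FOXD2 libraries, against 90.5 and 89.7 in the control libraries. These differences between gene sets were not tested.

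Open ends were nearly always starts. For 191 of the 220 genes the RefSeq promoter table gives a start and strand. Their 5′ end was open in all 4 lists in 102 cases (53.4%) and their 3′ end in 7 (3.66%), against 65.1% and 9.04% of other genes. The genes with an open 3′ end were ZNF653, ZNF565, ZNF766, ZNF701, ZNF628, ZNF580 and ZNF324, and only ZNF565 was open at its 3′ end without its 5′ end. Of the 7, 3 have an end of another gene within 1000 bp. At the 110 listed starts open in all 4 lists, the summit of the best interval lay at a median of −54.5 and −46 bp from the start in the FOXD2 libraries, against −48 and −58.5 bp in the control libraries. It lay within 250 bp of the start in 93.6 and 89.1% of these genes in the FOXD2 libraries, against 94.5 and 88.2% in the control libraries, and in 73.7 to 74.6% of other genes over the 4 libraries.

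Genes can also be entered from internal starts. Of 72 genes with a listed start and closed ends, 11 had an interval within 1000 bp of an internal listed start in all 4 lists. These were ZNF799, ZNF536, ZNF599, ZNF567, ZNF875, ZNF225, ZNF112, ZNF320, ZNF749, ZNF550 and ZNF329. ZNF563, ZNF442, ZNF331 and ZNF814 had it in 1 or 2 lists. With listed starts counted, 128 genes (58.2%) were open in all 4 lists and 72 (32.7%) were closed in all, against 68.8% and 20.1% of other genes. In 19p13-p12 the open and closed counts were then 28 and 28, and in 19q13 they were 99 and 44. The boundary of a gene record thus hid an open start in some of the genes called closed, mostly in 19q13.

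Promoter sequence was compared with state at the listed start nearest the 5′ end of each of the 191 genes. That state can differ from the gene-end state, as in ZNF254, whose end is open and whose listed start is not. The CpG ratio was above 0.6 in 75.9% of the ZNF promoters and in 65.4% of other promoters. The clusters differed in this, with 18 of 54 promoters (33.3%) in 19p13-p12 and 126 of 136 (92.6%) in 19q13. Median ratios were 0.529 in 19p13-p12 and 0.820 in 19q13.

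Closed starts of ZNF genes were rich in CpG in 19q13 and not in 19p13-p12. Of the 63 ZNF starts closed in all 4 lists, 69.8% had a ratio above 0.6, against 48.4% of the closed starts of ZNF genes elsewhere and 16.5% of those of all other genes. In 19q13 this was 37 of 41 closed starts (90.2%), beside 79 of 84 open starts (94.0%). In 19p13-p12 it was 6 of 21 closed starts (28.6%), with a median ratio of 0.436, beside 10 of 26 open starts (38.5%). Of the ZNF promoters with a ratio over 0.8, 20 of 83 (24.1%) were closed in all 4 lists, against 11 of 105 (10.5%) for ZNF genes elsewhere and 276 of 6898 (4.00%) of all other promoters. Up to a ratio of 0.6 the shares lay close together, at 63.6% against 66.8% up to 0.4 and 34.3% against 33.1% from 0.4 to 0.6. ZNF528, printed above with 27 CG dinucleotides, belongs to the CpG-rich closed starts, as do ZNF135 with a ratio of 1.04, ZNF229 with 1.05, ZNF549 with 1.06 and ZNF773 with 1.08.

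**Figure D4:**
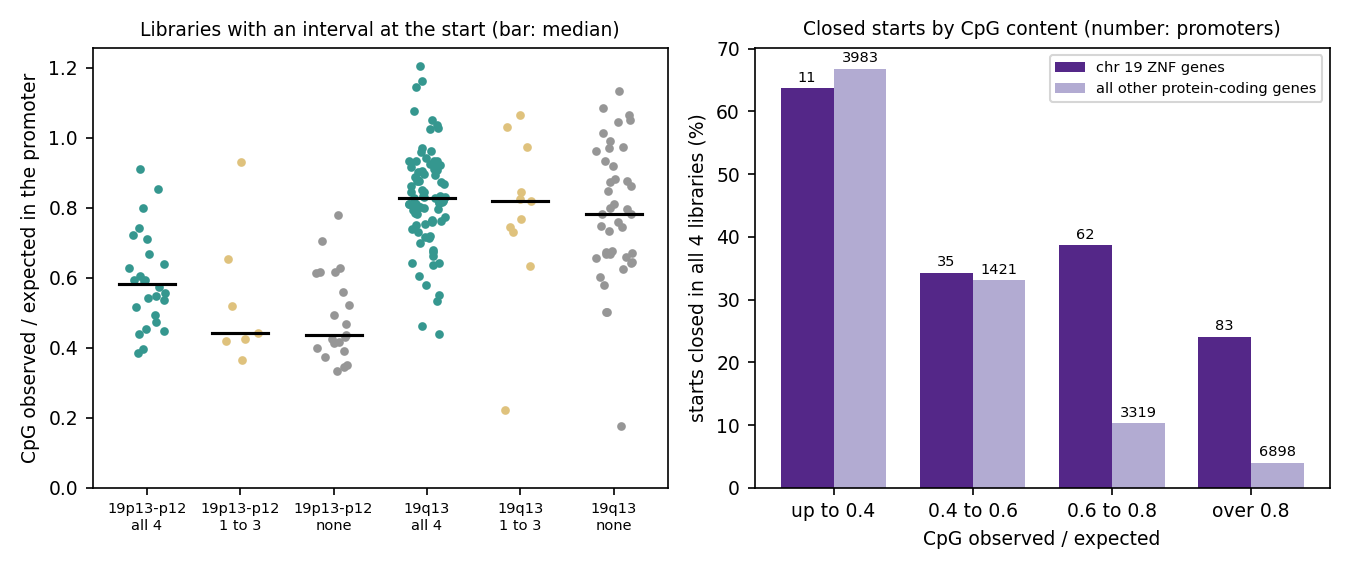
Left, observed over expected CpG of each ZNF promoter (vertical axis) by cluster and by the number of libraries with an interval at the start, with the median as a bar; right, percent of starts closed in all 4 libraries (vertical axis) by bins of that ratio, for chromosome 19 ZNF genes beside all other genes, with the number of promoters above each bar. In 19q13 the open and closed medians lie close, at 0.827 and 0.782, and over a ratio of 0.8 the closed share is 24.1% for ZNF genes against 4.00% for other genes.

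Motifs were searched on both strands of these promoters. The ETS motif CCGGAAG was in 88 of 191 ZNF promoters (46.1%), against 13.7% of other promoters and 14.1% of all promoters. ZNF promoters of other chromosomes held it in 70 of 195 cases (35.9%), so it was frequent in ZNF genes elsewhere too. On chromosome 19 it was in 50.8% of the closed ZNF starts and in 48.2% of those open in all 4 lists. Among ZNF genes elsewhere it was in 22.6% of the closed and 38.8% of the open starts, and among all other genes in 3.18% of the closed and 18.99% of the open. The NRF1 motif was in 5 ZNF promoters (2.62%, all promoters 1.77%). The long YY1 motif was in 2 (1.05%, all promoters 1.33%), and the shorter form GCCATCTT in 10 (5.24%, all promoters 3.86%). The forkhead motif TGTTTAC was in 1 ZNF promoter (0.524%), that of ZNF534, against 2.68% of all promoters, and TGTTGAC was in 3, those of ZNF627, ZNF283 and ZNF224 (1.57%, all promoters 1.85%). A promoter with both YY1 forms counts under each.

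The printed 19p13-p12 promoters share the letters CCAATCAG, a form of the CCAAT box, and this motif was added to the search after they had been seen. It was in 50 of 54 promoters of 19p13-p12 (92.6%), in 3 of 136 in 19q13 (2.21%), and in 5.22% of all promoters. ZNF promoters of other chromosomes held it in 26 of 195 cases (13.3%). Of the 66 matches in 19p13-p12, 65 were on the strand of the gene. The first base lay at a median of −58 from the start over the 66 (interquartile range −84 to −52). The match on the opposite strand, in ZNF490, is the same site as that of ZNF791. The promoters of these genes overlap, and the site is counted for both. The promoters without the motif were those of ZNF653, ZNF333, ZNF44 and ZNF799, and 16 promoters held it more than once. It was in 29 of 29 promoters of the group from ZNF101 to ZNF254 and in 21 of 24 of the group from ZNF653 to ZNF791. Closed starts of 19p13-p12 held it in 21 of 21 cases and starts open in all 4 lists in 22 of 26. The following windows of 40 bases show the motif in capitals in 8 genes of the ZNF101 to ZNF254 group, from RefSeq GRCh38.p14 on the strand of the gene, with the first 4 from closed and the last 4 from open starts. They were picked as examples after the matches had been seen. The first 7 are the upstream copy of a promoter with the motif at 2 places, and that of ZNF91 is its single copy, nearer the start.
ZNF93: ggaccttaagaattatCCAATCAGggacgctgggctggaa
ZNF626: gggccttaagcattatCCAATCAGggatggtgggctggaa
ZNF43: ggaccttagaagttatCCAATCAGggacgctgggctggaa
ZNF208: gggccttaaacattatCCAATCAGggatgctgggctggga
ZNF85: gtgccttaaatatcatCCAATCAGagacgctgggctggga
ZNF431: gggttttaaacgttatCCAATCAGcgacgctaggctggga
ZNF724: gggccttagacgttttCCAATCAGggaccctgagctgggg
ZNF91: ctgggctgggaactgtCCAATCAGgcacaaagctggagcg
These windows lie at chr19:19900846-19900885 (ZNF93, + strand), chr19:20661634-20661673 (ZNF626, - strand), chr19:21836246-21836285 (ZNF43, - strand), chr19:22011001-22011040 (ZNF208, - strand), chr19:20923154-20923193 (ZNF85, + strand), chr19:21141937-21141976 (ZNF431, + strand), chr19:23250452-23250491 (ZNF724, - strand) and chr19:23395506-23395545 (ZNF91, - strand).

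Promoters resembled each other most in 19p13-p12. An identity of at least 80% over 300 bases to the promoter of another protein-coding gene was found for 23 of 54 (42.6%) there and for 10 of 136 (7.35%) in 19q13. By state it was found for 14 of 63 starts closed in all 4 lists (22.2%) and for 16 of 110 starts open in all (14.5%). These pooled shares hide a difference between the clusters. All 14 closed starts were among the 21 closed starts of 19p13-p12, and none was among the 41 closed starts of 19q13. Of the 26 open starts of 19p13-p12, those with such identity were ZNF85, ZNF430, ZNF714, ZNF431, ZNF100, ZNF724 and ZNF91. The other open ones were in 19q13. Only 2 promoters reached 90%, and both belonged to starts open in all 4 lists.

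Gene bodies held few intervals away from the gene ends. The 220 genes cover 6.58 Mb summed over genes, and 195 and 173 intervals overlapped them in the FOXD2 libraries, against 193 and 193 in the control libraries. Per 10 kb this was 0.296 and 0.263 in the FOXD2 libraries, against 0.293 and 0.293 in the control libraries. FOXD2 minus control was −0.0137 per 10 kb (exact permutation p = 1, adjusted p = 1). The FOXD2 libraries lay on both sides of the control libraries, and the lower of them was the one with the shortest list. In 19p13-p12 the density was 0.183 and 0.151 in the FOXD2 libraries, against 0.187 and 0.169 in the control libraries. In 19q13 it was 0.377 and 0.338 in the FOXD2 libraries, against 0.374 and 0.369 in the control libraries. All other genes had 0.403 and 0.325 in the FOXD2 libraries, against 0.381 and 0.359 in the control libraries. Whole bodies in 19q13 were thus near other genes, and above them in FOXD2 library 2 and control library 2. ZNF genes elsewhere, at 0.520 and 0.421 against 0.471 and 0.445, were above both clusters.

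More than 1000 bp inside both ends, 64 and 48 intervals were left in the FOXD2 libraries, against 66 and 61 in the control libraries. That is 0.0972 and 0.0729 per 10 kb in the FOXD2 libraries, against 0.100 and 0.0927 in the control libraries. Other genes had 0.282 and 0.211 in the FOXD2 libraries, against 0.258 and 0.238 in the control libraries. No inner interval was found in any list for 172 of the 220 genes (78.2%), against 40.3% of other genes, 46.8% of ZNF genes elsewhere and 37.3% of other genes of chromosome 19. By cluster this held for 84.1% of genes in 19p13-p12 and 76.3% in 19q13. The median length was 23.5 kb for the chromosome 19 ZNF genes, 24.2 kb for all other genes and 12.9 kb for other genes of chromosome 19. Medians hide the longest genes. Bodies summed to 6.58 Mb over the 220 genes and to 1287 Mb over the 19754 other genes, which were thus longer on average. Shares without an inner interval were not compared at equal length.

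**Figure D5:**
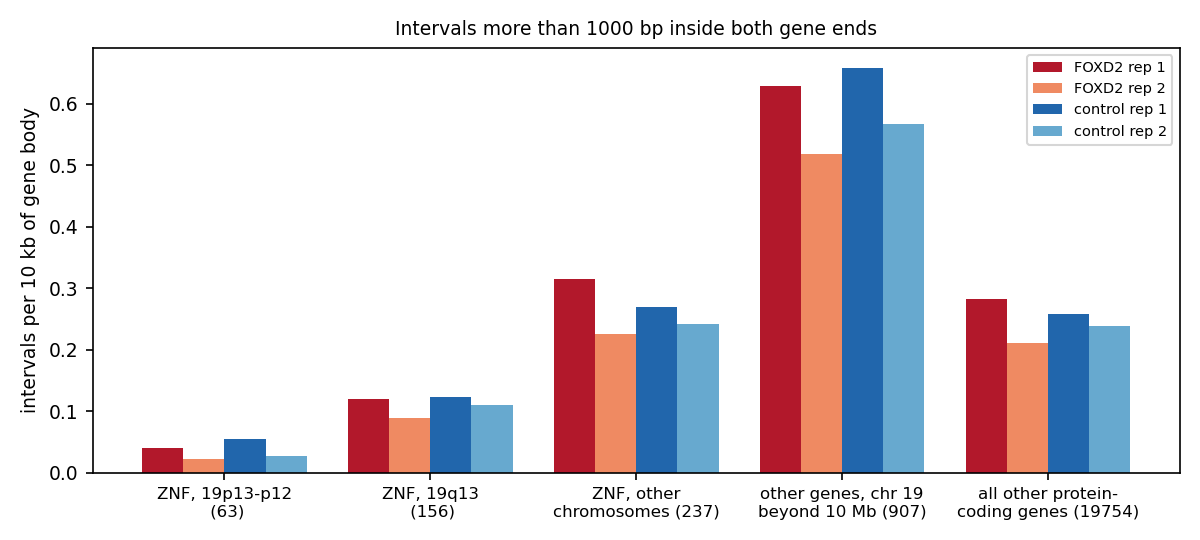
Intervals more than 1000 bp inside both gene ends, per 10 kb of gene body (vertical axis), in each of the 4 libraries for ZNF genes of 19p13-p12 and 19q13 and 3 comparison sets, with the number of genes in brackets. ZNF genes of chromosome 19 lie between 0.0228 and 0.123, below the comparison sets in each library.

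The genes with most intervals in the body, summed over the 4 lists, were ZNF536 with 34, ZNF83 with 15 and ZNF865 with 14, followed by ZNF541, ZNF565 and ZNF581 with 13 each. ZNF536 is the longest of these, at 488 kb, and unlike most of the set it encodes a zinc finger protein without a KRAB domain that is known from neuronal cells. It held 8 and 8 intervals in the FOXD2 libraries, against 6 and 12 in the control libraries. Its strongest interval lay near an internal start, spanning chr19:30227570-30228118 over the 4 lists, and had −log10 q of 21.7 and 16.1 in the FOXD2 libraries, against 27.6 and 32.5 in the control libraries. ZNF83 held 4 and 3 intervals in the FOXD2 libraries, against 4 and 4 in the control libraries. ZNF865, only 11.6 kb long, held 5 and 2 in the FOXD2 libraries, against 3 and 4 in the control libraries.

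Intervals of the 4 lists that overlapped were merged into regions, of which 243 lay in the gene bodies. Of these, 143 (58.8%) were present in all 4 lists, against 32.5% of all regions of the genome. None was present in both FOXD2 libraries and in neither control library, and 5 (2.06%) were present in both control libraries and in neither FOXD2 library. Over all 122856 regions the first pattern held for 4777 (3.89%) and the second for 4758 (3.87%). The share of 2.06% is thus below the share over the genome. Leaving out 1 library, so that fewer have to be alike, gave 23 FOXD2-only and 8 control-only regions of 230 without FOXD2 library 2, where 19.5% and 5.93% of all regions have these patterns. Without FOXD2 library 1 there were 13 and 11 of 220 (all regions 12.05% and 10.3%). Without control library 1 there were 4 and 22 of 227 (6.91% and 14.4%), and without control library 2 there were 0 and 24 of 228 (6.18% and 17.0%). In each of these 8 counts the share in ZNF bodies was below that over the genome, regions outside genes included. Other gene bodies were not counted with 1 library left out. A region present in all 4 lists cannot have either pattern, and such regions were more frequent in ZNF bodies.

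The 5 regions seen in controls only were 214 to 612 bp wide. They were chr19:30683038-30683290 in ZNF536, chr19:47539007-47539263 in ZNF541, chr19:50039048-50039413 and chr19:50046934-50047147 in ZNF473, and chr19:58368759-58369370 in ZNF837. A further one lay 148 bp outside ZNF787, at chr19:56086749-56087218. Their −log10 q ranged from 3.56 to 18.2 in the control libraries. ZNF473, whose product takes part in the 3′ processing of histone mRNA, was the only gene with more than 1 of them. Its regions had −log10 q of 4.31 and 4.69, and of 7.38 and 8.92, in the control libraries. The interval at its end was present in all 4 libraries, with −log10 q of 71.1 and 61.2 in the FOXD2 libraries, against 65.7 and 104 in the control libraries.

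Genes for the partners of KRAB zinc finger proteins were mostly open. Of 24 genes of this machinery, listed with earlier results of these data known, 20 had an open end in all 4 lists, including SETDB1 and the heterochromatin protein genes CBX1, CBX3 and CBX5. Among all protein-coding genes outside the 220 the share open in all 4 lists was 65.7%, and the difference was not tested. CHD3 and ZFP57, which guards imprinted loci, were open in some lists. UHRF1, which recruits the maintenance DNA methyltransferase, was closed at both ends, and so was TRIM28. Internal starts were not counted for this list, so an open start of UHRF1 inside its gene record could be missed. No list held an interval on chromosome 19 beyond position 58538736, and TRIM28 and 4 other genes (ZBTB45, CHMP2A, UBE2M and MZF1) end beyond it, so the state of TRIM28 is not known from these lists. All 220 ZNF genes end before that position. A region filter that could remove this tip was not given in the sources used here.

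Of 19 listed chromosome 19 genes under other symbols, most were zinc finger genes of the same rows. Of the 19, 5 had an open end in all 4 lists and 11 had closed ends in all, with internal starts not counted. The closed genes were ZFP82, ZSCAN5A, ZSCAN5B, ZSCAN5C, ZFP28, ZIM3, ZIK1, ZSCAN4, ZSCAN18, MZF1 and VN1R1. VN1R1 encodes a vomeronasal receptor and no zinc finger protein, and MZF1 lies beyond the last interval. ZIM2, ZSCAN1 and the imprinted PEG3 were open in 1 to 3 lists. In neither list did a gene have an open end in both libraries of 1 group and in neither of the other. Over all genes this held for 0.476% (FOXD2 only) and 0.901% (controls only), so lists this short are near these shares.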

How the data were processed

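ATAC-seq of 2 FOXD2 and 2 control HCT116 libraries was available as 1 list of peak intervals per library. The submitters' processing notes list hg38, MACS2 2.2.7.1, Bowtie2 2.3.4.1, cutadapt 3.4, bedtools and Picard. Settings, any Tn5 shift and region filters were not given in the sources used here. Each interval carries the authors' fold enrichment (a ratio), −log10 p, −log10 q and score, each a property of that peak in its own list. The deposited −log10 q and fold were used to rank and describe, and the −log10 p and score deposited by the authors were not used further. Read depth is unknown. Intervals on chromosomes 1 to 22 and X were kept. Genes came from RefSeq (GRCh38.p14, the same assembly as hg38) and were joined by an overlap of at least 1 bp in Python 3.11.15 with numpy 2.4.6, scipy 1.17.1 and pandas 2.3.3. The promoter table held 191 of the 220 genes, and edlib 1.3.9.post1 gave promoter identities. The interval functions were tested on simulated lists.

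Shares carry exact Clopper-Pearson 95% intervals for counting error only. FOXD2 minus control was tested with an exact two-sided permutation test over the 4 libraries. The genes and lists were chosen with earlier results of these data known. Genes named are all that changed state, all closed in every list, the 5 strongest and 5 weakest open ends, the 5 with most body intervals, those beside the 10 Mb limit and the first and last of each group, with others named for known roles. Alternatives changed the window, the end, the interval threshold, list length, overlap rule, merging and libraries. Counting internal starts, leaving out ZNF536 and the motif CCAATCAG were added after seeing the data. A planned restriction to genes with at least 2 C2H2 fingers was not run, because proteins were not used here.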

Additional observations from a re-analysis of the deposited data

How the results depend on the processing

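The count of 114 genes open in all 4 lists stayed between 94 and 128 under all 12 alternatives. These counts do not share 1 base. The lowest, 94, leaves out the 40 genes with an end near another gene end. The count of 102 at the 5′ end covers only the 191 genes with a listed strand. Without single libraries, only the lists that remained had to be open. The difference FOXD2 minus control of 0.455 percentage points was −0.227 with −log10 q of 5 or more, and −0.909 to 1.82 when single libraries were left out, with −0.909 without FOXD2 library 1. Genes open in FOXD2 only numbered 0 to 5, and in controls only 0 to 4, when single libraries were left out, so that fewer have to be alike. With −log10 q of 5 or more, and with lists of equal length (64675 intervals), 1 gene, ZNF772, was open in controls only. The share of all genes with this pattern under these settings was not counted, so the call of ZNF772 has no background beside it.

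The lead of 19q13 over 19p13-p12 among genes open in all lists, 12.9 percentage points, was 11.6 with a 500 bp window, 16.1 with 2000 bp, 7.73 at the 5′ end only, 15.3 without genes near another gene end, 19.02 with listed starts counted, and 11.0 to 13.6 without single libraries. The mean of 188.5 body intervals was 92.5 with summits, which mostly lie before the start, 59.75 more than 1000 bp inside, and 186 to 194 without single libraries. The body difference of −0.0137 per 10 kb ranged from −0.0304 to 0.00304 and turned positive without FOXD2 library 2. Body regions present in FOXD2 only numbered 1 with lists of equal length, in ZNF444, and 0 to 23 without single libraries. Those in controls only, 5 in all, numbered 8 to 24 without single libraries. The share of all regions that are FOXD2-only at equal list length was not counted, so the region in ZNF444 has no background beside it. The replicate block, which pairs libraries by number although nothing in the labels ties the numbers, gave the same differences of 0.455 points and −0.0137 per 10 kb (exact permutation p = 1 for each, smallest possible p = 0.5). Presence of an interval cannot show a graded change, and depth is unknown.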
